A study of Homo sapiens with 2 samples.

Results

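The nucleotide supply genes are 8 genes that make, salvage or break down the deoxynucleotides used to copy and repair DNA: RRM1, RRM2, RRM2B, TYMS, TK1, DCK, DUT and SAMHD1. They were listed by their function, and are 8 of the 20037 protein-coding genes in RefSeq. For each gene, every called interval inside it or within 100 kb of either end was taken from both peak lists. An own-promoter site is one whose summit lay within 1 kb of a start of the gene; every other site was given to the closest end of a protein-coding gene. The data came from TC32, an established Ewing sarcoma cell line, a bone and soft tissue tumour driven by EWS-FLI, in which part of EWSR1 is joined to the DNA-binding ETS factor FLI1. CUT&Tag, in which an antibody tethers a transposase to the DNA where its target sits, was run for EWS-FLI in cells treated with siEWS-FLI (1 library) and in cells treated with siNEG (1 library). The labels do not spell out siNEG, and they name neither the antibody nor any other agent. Binding sites do not give the amount of fusion protein, so its depletion was not checked here. With 1 library in each group no difference below has a replicate check, and no p-value is given.

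Ribonucleotide reductase converts ribonucleotides to deoxyribonucleotides and sets the pace of DNA synthesis. RRM1 is its large subunit, RRM2 the small subunit made in S phase, and RRM2B a p53-inducible small subunit that serves repair and mitochondrial DNA. Thymidylate is made by TYMS from dUMP, which DUT supplies by cleaving dUTP, while TK1 and DCK salvage thymidine and deoxycytidine and SAMHD1 degrades deoxynucleoside triphosphates. ATR and CHK1 signalling is known to guard this supply during replication stress.

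The promoter stretches under the siNEG own-promoter summits are given first, because they are where these sites lie. They are reference sequence from RefSeq on GRCh38.p14, read 5′ to 3′ along the gene's strand; capitals mark GGAA, the core of ETS sites, or TTCC, the same core on the opposite strand. The first 3 end at the base before the outermost annotated start, with bases inside a neighbouring gene left out, and the last 2 are 30 bases around the siNEG summit. Promoter windows of 7 of the 8 genes were matched; RRM2B was not.
TK1 (chr17:78187205-78187361, minus strand): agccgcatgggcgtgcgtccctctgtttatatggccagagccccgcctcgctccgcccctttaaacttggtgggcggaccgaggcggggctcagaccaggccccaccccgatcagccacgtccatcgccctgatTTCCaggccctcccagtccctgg
RRM1 (chr11:4094435-4094684, plus strand): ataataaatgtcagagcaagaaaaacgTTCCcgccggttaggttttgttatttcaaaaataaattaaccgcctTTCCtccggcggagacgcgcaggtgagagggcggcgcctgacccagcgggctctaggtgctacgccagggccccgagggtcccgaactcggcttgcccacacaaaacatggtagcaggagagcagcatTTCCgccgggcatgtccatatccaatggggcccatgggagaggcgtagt
SAMHD1 (chr20:36951709-36951958, minus strand): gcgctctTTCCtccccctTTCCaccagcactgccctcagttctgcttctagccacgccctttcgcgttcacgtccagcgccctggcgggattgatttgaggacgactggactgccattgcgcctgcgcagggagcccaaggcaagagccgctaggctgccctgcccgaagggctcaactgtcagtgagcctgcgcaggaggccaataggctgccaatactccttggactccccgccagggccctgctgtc
RRM2 (chr2:10122695-10122724, plus strand): cgcggcgcgggagatttaaaggctgctgga
DUT (chr15:48331439-48331468, plus strand): cgggcgcgtcttcagggtGGAAgcctggcg
The siNEG summit was at base 108 of the TK1 stretch, base 70 of the RRM1 stretch, base 140 of the SAMHD1 stretch and base 16 of the other two.

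A site's strength is given as its summit pileup, that is, how many extended reads cover the summit. It was computed from the fold enrichment and −log10 p-value that the authors deposited, is not scaled for depth, and carries an exact Poisson 95% interval for counting error only. Reads amplified by 14 and then 20 PCR cycles are not independent molecules, so the true error is larger. The siEWS-FLI library had 6370 intervals with a median pileup of 5 reads and the siNEG library 16284 with a median of 8 reads. The library-wide backgrounds were 0.239 and 0.348 reads per base, a ratio of 0.687, siEWS-FLI over siNEG, so the libraries were not of equal depth. Of the Ewing sarcoma genes used to look at the label (CD99, NKX2-2, NR0B1, STEAP1, PRKCB, SOX6, CCND1 and LIPI), 4 of 8 had a siEWS-FLI and 8 of 8 a siNEG interval within 100 kb. Of 8 genes of other cell types (ALB, HP, FGA, CD3E, CD79A, HBB, EPCAM and CDH1) 3 had a siEWS-FLI and 6 a siNEG interval. Over all protein-coding genes the shares were 59.3% and 82.9%. An own-promoter site was present at 1 of the Ewing sarcoma genes with siEWS-FLI (SOX6) and at 3 with siNEG (CD99, STEAP1 and PRKCB). None of the genes of other cell types had one. Over all protein-coding genes 12.3% had an own-promoter site with siEWS-FLI and 34.7% with siNEG. The counts at the Ewing sarcoma genes are near these shares, and with 8 genes in each list they do not settle the label.

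Sites around the nucleotide supply genes were mostly called with siNEG alone. There were 5 siEWS-FLI intervals, of 4 to 21 reads with a median of 6, and 19 siNEG intervals, of 4 to 165 reads with a median of 7. An interval was found for 5 of 8 genes with siEWS-FLI and for 7 of 8 with siNEG; over all protein-coding genes the shares were 59.3% and 82.9%. Genes of this set had a median of 1 siEWS-FLI and 2 siNEG intervals, equal to the medians of 1 and 2 over all genes. Per Mb of these windows, which were drawn around genes, there were 2.62 siEWS-FLI and 9.96 siNEG intervals, against 2.06 and 5.28 over the whole genome. Overlap by at least 1 base made 3 siEWS-FLI intervals (60%, exact binomial 95% interval 14.7 to 94.7) and 3 siNEG intervals (15.8%, 3.38 to 39.6) shared, against 41.1% and 15.6% of all intervals of each library.

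**Figure D1:**
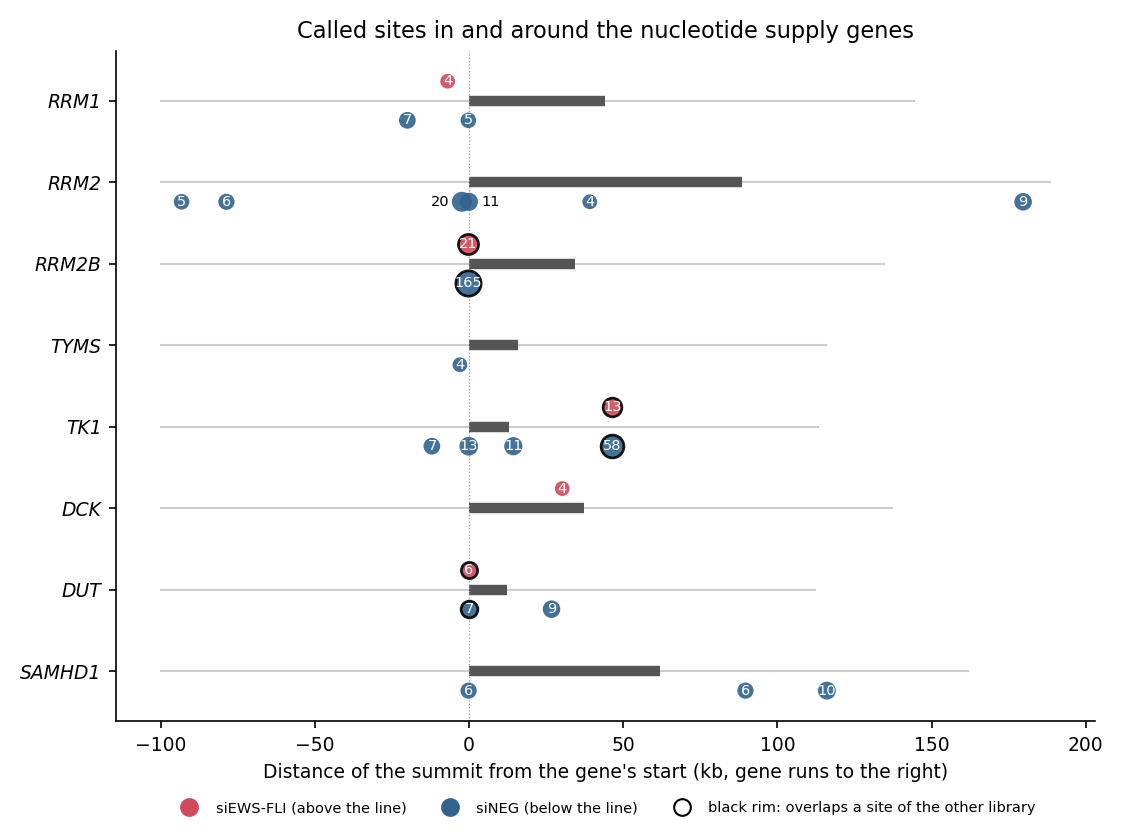
Each row is one gene with its 100 kb flanks; the thick bar is the gene body, running to the right from its outermost start, and the x axis is the distance of each summit from the nearest own start in kb. Red points above the line are siEWS-FLI sites and blue points below it siNEG sites, labelled with their summit pileup in reads; a black rim marks overlap with a site of the other library. RRM2B has no strand in the tables used and is drawn from the gene end its site lies at. RRM2 has 6 siNEG sites and no siEWS-FLI site, DCK has 1 siEWS-FLI site and no siNEG site, and the sites of 21 and 165 reads at RRM2B are the highest of their libraries in these windows.

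Own-promoter sites were found at 2 of 8 genes with siEWS-FLI, RRM2B and DUT, and at 6 of 8 with siNEG, RRM1, RRM2, RRM2B, TK1, DUT and SAMHD1. Over all protein-coding genes the shares were 12.3% with siEWS-FLI and 34.7% with siNEG, and with 8 genes the exact binomial 95% intervals run from 3.19 to 65.1% and from 34.9 to 96.8%. For the 7 genes with annotated starts, that is without RRM2B, the counts were 1 and 5, against 13.6% and 36.9% of all such genes. Both siEWS-FLI own-promoter sites overlapped the siNEG one, so 2 of the 6 siNEG promoters were shared, against 31.0% of all genes with one and 10.8% of all genes. TYMS and DCK had no own-promoter site in either library, like 12876 of all 20037 protein-coding genes. With the siNEG list cut to the length of the siEWS-FLI list, keeping its highest −log10 q, 2 genes had a siEWS-FLI and 2 a siNEG own-promoter site (RRM2B and TK1), and the windows held 5 siEWS-FLI and 6 siNEG intervals. The share of all genes under the cut list is not given here, so these counts cannot be read against it.

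The small subunit gene RRM2B had by far the strongest of these sites. Its summit pileup was 21 reads (13.0 to 32.1) with siEWS-FLI and 165 reads (141 to 192) with siNEG, on chromosome 8 at 102238945 to 102239721 and 102238878 to 102239643 in hg38. The siEWS-FLI pileup was 0.127 of the siNEG one (exact conditional 95% interval 0.0767 to 0.201), which lies below the 0.687 of the library-wide backgrounds. That low ratio is common to strong sites: 177 shared intervals with 100 to 199 siNEG reads had a median ratio of 0.113 (quartiles 0.0894 and 0.154), and 57.1% of them lay below the RRM2B value. Among 6944 genes with a siNEG own-promoter site RRM2B ranked 77th by its strongest one, above 98.9% of them. The summits, 11 bases apart, lay 370 bases outside the gene's end with siEWS-FLI and 359 with siNEG. No other protein-coding gene end lay within 12.9 kb of either summit. With every gene class counted, RRM2B was not the closest gene end, so the site is not assigned to it alone.

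RRM2, which encodes the S phase small subunit, had the most siNEG sites and none with siEWS-FLI. Its window was also the longest of the 8, at 288 kb. A siEWS-FLI interval was found within 100 kb of 59.3% of all protein-coding genes. The siNEG sites had 4 to 20 reads, where 1.24% to 41.4% of all siNEG intervals were shared, by class. The RRM2 own-promoter site on chromosome 2 (10122597 to 10122802) had 11 siNEG reads (5.49 to 19.7), with the summit 29 bases upstream of the inner of its 2 annotated starts. A stronger siNEG site of 20 reads (12.2 to 30.9) lay 2.29 kb upstream (10120086 to 10120613), beyond the own-promoter limit but with RRM2 as the closest protein-coding gene end. At the siNEG local background of either site, a siEWS-FLI pileup of 8 or fewer would not have been called. At the lower siEWS-FLI library-wide background the limit would be 3 reads. The siEWS-FLI local background there is not known, and an uncalled site is not an empty one. The nearest siEWS-FLI summit was 237 kb from the own-promoter site. A siNEG site of 4 reads lay inside the gene as RefSeq draws it, 39.2 kb past the start. The other sites of the window were closest to other protein-coding genes: 5 and 6 siNEG reads to KLF11, at 14.1 kb and 391 bases from its end, and 9 reads to HPCAL1, at 477 bases. With noncoding genes counted, the sites of 4, 5 and 9 reads were closer to the ends of uncharacterised genes. These were LOC124906144 at 6711 bases, LOC112268412 at 95 bases and LOC101929691 at 290 bases.

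The large subunit gene RRM1 had a weak siNEG site at its promoter and a siEWS-FLI site elsewhere. With siEWS-FLI the window held 4 reads (1.09 to 10.2) at a summit 6.89 kb upstream of RRM1, inside STIM1, whose end was closer at 5.42 kb. With siNEG it held 5 reads (1.62 to 11.7) 181 bases upstream of the RRM1 start on chromosome 11 (4094413 to 4094658), 1.29 kb from STIM1, and 7 reads inside STIM1 20.0 kb away. None of these 3 intervals overlapped another, and the promoter summit of siNEG was 6.71 kb from that of siEWS-FLI. A siEWS-FLI pileup of 3 or fewer would not have been called at the promoter, close to the 5 reads of siNEG.

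Among the thymidylate genes, DUT alone had a promoter site in both libraries. DUT, which encodes the dUTPase, had 6 reads (2.2 to 13.1) with siEWS-FLI and 7 reads (2.81 to 14.4) with siNEG, with summits 5 bases apart on chromosome 15 (48331256 to 48331455 and 48331154 to 48331556). The ratio of 0.857 had an exact conditional interval of 0.238 to 2.98, so these counts cannot tell a difference from none. A shared site needs at least 4 siEWS-FLI reads, and the 284 shared intervals of 6 to 9 siNEG reads had a median ratio of 0.778. Both summits lay just past the third of the gene's 4 annotated starts, 20 and 25 bases downstream. The siEWS-FLI interval was 200 bases wide, the narrowest listed, inside the 403 bases of the siNEG one, and the pair no longer counted as shared under a reciprocal overlap of 50%. A further siNEG site of 9 reads lay 15.6 kb from the gene's other end. TYMS, which encodes thymidylate synthase, had a siNEG site of 4 reads (1.09 to 10.2) 2.92 kb upstream on chromosome 18 (654633 to 654832) and no siEWS-FLI site in its window.

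The salvage kinase genes differed from each other. TK1 had a siNEG own-promoter site of 13 reads (6.92 to 22.2) on chromosome 17 (78187076 to 78187408) that was not called with siEWS-FLI. There 5 or fewer reads would not have been called at the siNEG background, or 3 or fewer at the siEWS-FLI library-wide background. The summit of this siNEG site lay 50 bases upstream of the outer TK1 start. It was 108 bases from the start of AFMID, a neighbour on the other side, so the site stands between 2 genes. The strongest site of the TK1 window belonged to another gene: inside TMC8, 33.6 kb from the near end of TK1 with siEWS-FLI and 33.5 kb with siNEG, the pileup was 13 reads (6.92 to 22.2) with siEWS-FLI and 58 reads (44.0 to 74.98) with siNEG. The ratio there was 0.224 (0.113 to 0.414), against a median of 0.155 in 452 shared intervals of 50 to 99 siNEG reads. Inside SYNGR2, 303 bases from its end, the window had 11 siNEG reads, and inside AFMID 7, neither called with siEWS-FLI. DCK, whose kinase also activates the nucleoside drugs cytarabine and gemcitabine, had no siNEG interval within 100 kb. Its one site was called with siEWS-FLI, at 4 reads (1.09 to 10.2), inside the gene 30.3 kb past the start and 6996 bases from the far end on chromosome 4 (71023819 to 71024018), and the nearest siNEG summit was 184 kb away.

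SAMHD1, which encodes the triphosphohydrolase, had 3 siNEG sites and no siEWS-FLI site. The own-promoter site had 6 reads (2.2 to 13.1), with its summit 111 bases upstream of the start on chromosome 20 (36951728 to 36951927), and 3 or fewer siEWS-FLI reads would not have been called there. The other siNEG sites, of 10 and 6 reads, both lay inside MTCL2, 27.9 and 1.49 kb from its end. The nearest siEWS-FLI summit to the promoter site was 178 kb away.

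**Figure D2:**
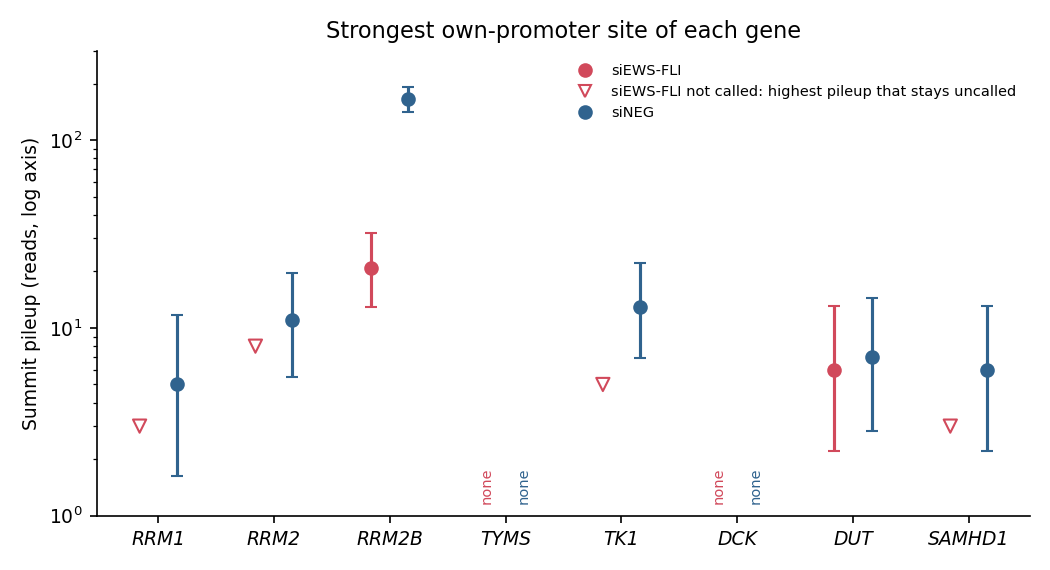
Summit pileup in reads, on a log axis, of the strongest own-promoter site of each gene with siEWS-FLI (red, left) and siNEG (blue, right); bars are exact Poisson 95% intervals of 1 library each, and "none" marks genes without such a site. Open triangles give the highest siEWS-FLI pileup too low for a call at the siNEG local background, from 3 reads at RRM1 and SAMHD1 to 8 at RRM2. At the siEWS-FLI library-wide background it would be 3 reads for every gene. RRM2B stands apart with 21 and 165 reads, while the other siNEG pileups lie between 5 and 13 reads.

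RRM2B aside, the siNEG pileups at these promoters were near or below the middle of those at all promoters with a site. The strongest own-promoter site per gene had a median of 9 siNEG reads in the 6 genes with one and of 12 reads (quartiles 8 and 25) over all 6944 genes with one. TK1 lay above 51.3% of those genes and RRM2 above 42.5%, while DUT lay above 16.9%, SAMHD1 above 9.35% and RRM1 above 3.18%. Whether a site was also called with siEWS-FLI followed its siNEG strength over the whole list: 1.24% of siNEG intervals of 4 or 5 reads were shared, 5.42% at 6 to 9 reads, 16.7% at 10 to 19, 41.4% at 20 to 49, 74.7% at 50 to 99 and 91.2% at 100 to 199. The 19 siNEG sites of these windows fell 4, 8, 4, 1, 1 and 1 into those classes, and 0, 1, 0, 0, 1 and 1 of them were shared. Applied to the 19 sites, the shares of each class over all intervals add up to 3.23 shared sites, beside the 3 found. The shared count is therefore near that of all intervals of like strength.

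**Figure D3:**
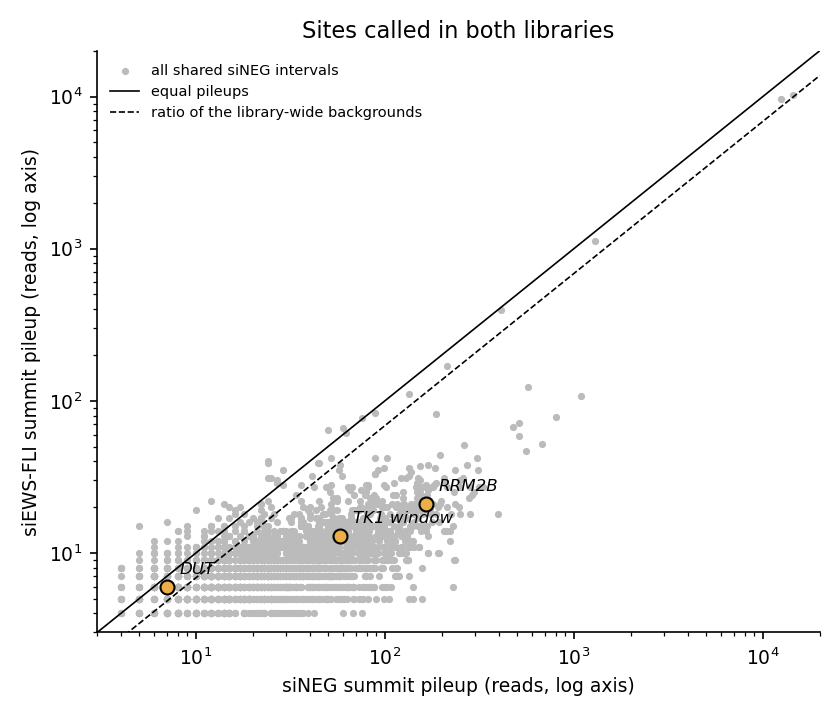
Summit pileups in reads, on log axes, at siNEG intervals that overlap a siEWS-FLI interval; grey points are all 2544 of them and the 3 orange points those of the nucleotide supply windows. The solid line marks equal pileups and the dashed line the 0.687 ratio of the library-wide backgrounds. RRM2B (21 and 165 reads) and the TMC8 site of the TK1 window (13 and 58) lie below both lines within the grey cloud, and DUT (6 and 7) lies between the lines at its lower end.

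The GGAA core was present in every promoter window of these genes that was searched, with or without a called site. Reference windows from 250 bases before to 50 after a start were searched on both strands; 12 windows of 7 genes were available, and 22183 windows of protein-coding genes served as background. GGAA occurred 2 times in the window of SAMHD1, which had a siNEG promoter site, and 8 times in that of TYMS, which had none; 95.2% of all windows held it, with a median of 3. CGGAAG, which contains GGAA, was found at RRM2, TYMS, DCK and DUT (23.7% of all windows), and GGAAGGAA, a short form of the repeat that EWS-FLI is known to bind, in none of the 12 (3.71%). TTTGGCGC and TTTCCCGC, forms of the E2F site of S phase genes, occurred at DCK and DUT (0.816% of all windows) and at TYMS and DUT (1.99%). CCAAT, the box bound by NF-Y, occurred 3 times in the inner RRM2 window, 2 times at SAMHD1 and in the inner TK1 window, and 1 time at RRM1 and in the outer RRM2 window (34.7%). Each of the 3 in the inner RRM2 window was part of a repeated word of 15 bases, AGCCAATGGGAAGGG, that holds a CCAAT box and a GGAA core and begins 96, 66 and 39 bases before the siNEG summit. This word was chosen after the sequence was read, as the longest that occurs 3 times in the window. It was present in 2 of the 22183 windows, and RRM2's was the 1 window with 3 copies. The 3 copies there were fixed by that choice, so these counts only describe the word. G and C made up from 55.7% of a member window, at the outer DUT start, to 78.3%, at the outer RRM2 start, against a median of 62.3% (quartiles 53 and 70).

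Promoters of other nucleotide metabolism genes were also mostly called with siNEG alone. Of 41 genes that make, salvage, phosphorylate or break down nucleotides, 6 had an own-promoter site with siEWS-FLI (14.6%, 5.57 to 29.2) and 30 with siNEG (73.2%, 57.1 to 85.8). With the siNEG list cut to the siEWS-FLI length the counts were 6 and 14, and the share of all genes under that cut is not given here. In the full list the siNEG share is above the 34.7% of all protein-coding genes and close to the 75% of the 8 supply genes. Whether either set of genes is particular in this was not tested. Sites were shared at 5 of the 30, against 31.0% of all genes with a siNEG own-promoter site, and the class shares of genes of like siNEG strength would add up to 8.40. GUK1, a guanylate kinase gene, had 6 siEWS-FLI and 64 siNEG reads, and NME1, a nucleoside diphosphate kinase gene, had 5 and 42. PAICS and PPAT, which catalyse steps of purine synthesis and share one promoter, had the same site, with 7 and 24 reads, so the 5 shared genes hold 4 sites. APRT, which salvages adenine, had 7 and 8.

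Of all siNEG intervals of 20 to 49 reads, 41.4% were shared with siEWS-FLI, so most were not. Several strong siNEG promoters of the list of 41 genes were among those not called with siEWS-FLI. They included ADSS2 (35 siNEG reads) and ADSL (34), both of AMP synthesis, DGUOK (34), the mitochondrial deoxyguanosine kinase gene, NT5C (29), which encodes a deoxyribonucleotidase, and NUDT1 (29), whose product clears oxidised nucleotides. The NUDT1 summit lay 108 bases from its own start and 129 bases from an end of MRM2, so that site is not assigned to NUDT1 alone. The ADSS2 summit lay 53 bases from its own start and 871 bases from an end of CATSPERE. At the siNEG local backgrounds of these promoters the highest siEWS-FLI pileup too low for a call was 6 reads at ADSS2 and DGUOK, 7 at ADSL, 8 at NT5C and 9 at NUDT1. At the siEWS-FLI library-wide background it would be 3 reads. TK2, the mitochondrial counterpart of TK1, was the one gene of the list with a siEWS-FLI own-promoter site (4 reads) and no siNEG one, and was named after its values were seen. Neither library had an own-promoter site at 10 genes of the list, among them CAD and UMPS of pyrimidine synthesis and SLC29A1, a nucleoside transporter. These 3 were also named after their values were seen. Over all 20037 protein-coding genes, 217 had a siEWS-FLI own-promoter site only and 12876 had none in either library, so lacking one is the usual state.

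**Figure D4:**
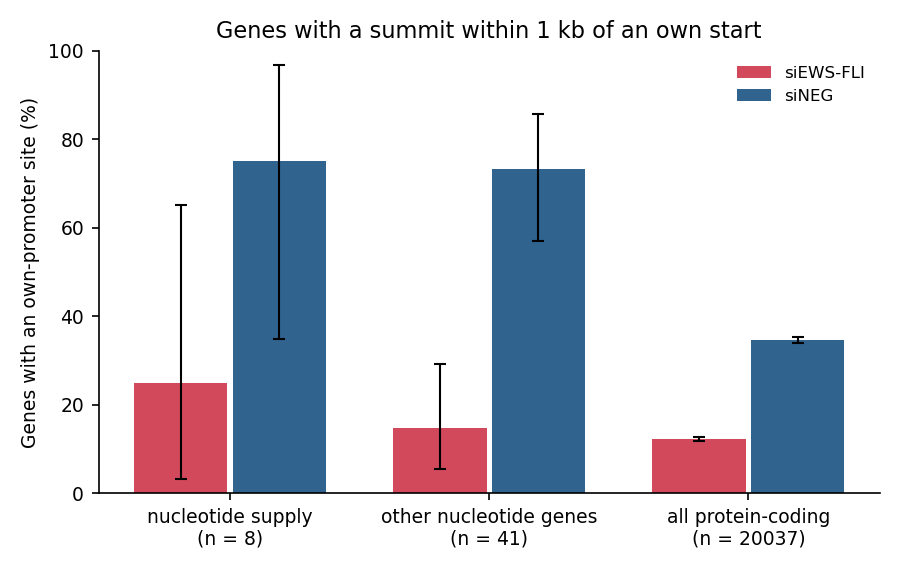
Percentage of genes with a summit within 1 kb of an own start, with siEWS-FLI (red, left) and siNEG (blue, right), for the 8 nucleotide supply genes, 41 other genes of nucleotide metabolism and all 20037 protein-coding genes; bars carry exact binomial 95% intervals for counting error only. The shares are 25%, 14.6% and 12.3% with siEWS-FLI and 75%, 73.2% and 34.7% with siNEG.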

How the data were processed

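CUT&Tag peak lists of 2 TC32 libraries, 1 per group, were used. The submitters' processing notes list MACS2 2.2.9.1, Bowtie2 2.4.5, Trim Galore 0.6.6 and the build hg38 but assign them no role; control library and duplicate handling: not given in the sources used here. Peaks were called per library, with a smallest deposited −log10 q of 1.33 for siEWS-FLI and 1.32 for siNEG, which matches a threshold of 0.05. Fold enrichment was deposited as a linear ratio of summit to local background within 1 library, and the deposited −log10 p-values and q-values belong to the summit. The display score that the authors deposited was left aside. How deep each library was read is not known beyond the solved background.

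Lines with the same interval were joined into 1 with the highest −log10 q (95 lines with siEWS-FLI, 904 with siNEG). The summit pileup was solved in python 3.11.15 with scipy 1.17.1, from fold = (pileup + 1) / (background + 1) and an upper Poisson tail for the p-value; a whole pileup solved 100% of lines within 0.001 in log10 p (in proportion above 10), and the step was tested on simulated data. More than 1 pileup was possible for 8 siEWS-FLI and 15 siNEG lines, none of them in the windows described, and the closest was kept. An uncalled pileup was the largest below the smallest called −log10 p of the siEWS-FLI list at the siNEG background. At the siEWS-FLI library-wide background it was 3 reads. The siEWS-FLI local background is known only at called sites. At the 3 shared sites of the member windows it was below that of siNEG, with 1.14 against 6.22 at RRM2B.

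Gene positions and promoter windows came from RefSeq GRCh38.p14, which shares the chromosome coordinates of hg38. Starts were known for 15842 of 20037 protein-coding genes; for the others, RRM2B included, either gene end was used. Members, the list of 41 genes and the alternatives were chosen with earlier results of these data known. The genes named were all 8 members, the gene end nearest each of their sites, and of the 41 the 6 with the highest siNEG promoter pileup and those shared; NT5C and NUDT1 tied for the last place and both were named. Some results on other genes are not reported here.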

Additional observations from a re-analysis of the deposited data

How the results depend on the processing

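Of 100 values recomputed under 14 alternative settings, 80 moved by at most 1.5 times, among them every pileup of a member's promoter site. The other 20 moved by more, which for small counts can still lie within counting error. Some of the 80 could not move. No member had more than 1 own-promoter site per library, so choosing the strongest by fold enrichment returned the same one. Another overlap rule cannot change the sites or genes called per library, and cutting the siNEG list cannot change siEWS-FLI counts. The counts that moved were small ones, and no share over all genes is given for these settings. At −log10 q of at least 5 there were 2 siEWS-FLI and 9 siNEG sites in the windows, and 1 member with a siEWS-FLI, 2 with a siNEG (RRM2B and TK1) and 1 with a shared own-promoter site; of the other nucleotide genes 1, 17 and 0 had one. At −log10 q of at least 2 there were 3 siEWS-FLI sites. With intervals wider than 200 bases there were 2 siEWS-FLI sites and 1 member with a siEWS-FLI and with a shared promoter site. With the siNEG list cut to the siEWS-FLI length there were 6 siNEG sites, 2 members with a siNEG and 1 with a shared promoter site, and 14 other genes with a siNEG one. Under a reciprocal overlap of 50% the shared promoters were 1 member, RRM2B, and 0 other genes. Where the closest end among all genes, noncoding ones included, had to be the member's own, 1 member, DUT, kept a siEWS-FLI and a shared site, and RRM2B did not, so its site is not assigned to RRM2B alone. No paired analysis was possible because each group had 1 library, and no library could be left out. The lowest called pileup was 4 reads in each library, so the weakest of these sites are at the calling threshold; the cause of each move was not tested.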
